A study of Mus musculus with 27 samples.

Results

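The comparison described here is between 2 polyadenylated RNA libraries of mouse embryonic stem cells, 1 from cells treated with 1 µM triptolide and 1 from untreated cells, both taken 6 h after release into S phase. They were taken by their titles, and are 2 of the 4 RNA libraries and of the 27 samples of the series. The cells of all groups used were KH2 embryonic stem cells, with the genotype given as KH2:13 Flag-BAP-H3 tags, so the untreated cells carried the tagged histone H3 too. They were grown with LIF and inhibitors of MEK1/2 and GSK3, which hold mouse embryonic stem cells in the naive state, and were synchronised with thymidine before release. The other RNA libraries, untreated and 1 µM triptolide at 3 h, served as a background here. The labels do not say when triptolide was added, and each group has 1 library, so differences are sizes between single libraries, without replicates or p-values.

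Triptolide is a plant diterpenoid triepoxide that binds XPB, the DNA translocase subunit of the general transcription factor TFIIH. TFIIH opens the promoter for RNA polymerase II, so the drug blocks initiation by that enzyme, and in many cell types the largest polymerase subunit is then degraded. When synthesis by that enzyme stops, the mRNAs it had already made decay, each at its own pace. A poly(A) library shows the polyadenylated RNA present as shares of a fixed number of reads.

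The tables name transcripts by identifier and the gene tables at hand do not pair these identifiers with genes (0 of 137271 matched). No gene is therefore named, the embryonic stem cell label could not be checked against marker genes, and no sequence could be taken for any transcript. At most 2 transcripts in each direction are given by identifier, and the others by length and level.

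The untreated library at 6 h held 24916091 estimated reads and the treated one 19148022, the fewest of the 4; those of 3 h held 27446243 and 27245319. A count of 0 in the treated 6 h library allows up to 3 reads, or 0.157 CPM (reads per 1000000 reads of the library), against 0.120 CPM in the untreated one. Intervals below are at 95%. Those of single transcripts and of read shares cover counting error only, and reads lack molecular identifiers and need not be separate molecules. Those of medians and of the percentage of transcripts called take transcripts as the units, which are not replicates of a condition. None covers the spread between replicate libraries. All values are shares within a library, no spike-in was used here, and fewer cells and less RNA per cell cannot be told apart in bulk samples.

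With triptolide at 6 h, the reads were packed into fewer transcripts. The 498 highest transcripts held 50% of the reads in the treated library, whereas 879 were needed in the untreated library at 6 h and also 879 at 3 h, and 714 with triptolide at 3 h. For 90% of the reads the numbers were 8524 with triptolide and 9986 without at 6 h, and 9468 and 9961 at 3 h. The 100 highest transcripts of each library took 31.7% of the treated and 24.6% of the untreated reads at 6 h, against 28.2% and 24.9% at 3 h. The 1000 highest took 59.6% and 52.0% at 6 h. The untreated libraries of the 2 times lay close together on each of these measures, and the treated 6 h library was the most concentrated of the 4. The same order was seen in the effective number of transcripts, the exponential of the Shannon entropy of the read shares. It was 3250 with triptolide and 4857 without at 6 h, and 4017 and 4808 at 3 h. Thinning the untreated 6 h library to the total of the treated one left the share of its 10 highest transcripts at 11.4%, against 14.7% with triptolide. Random thinning keeps each expected share, so this value could hardly change. The numbers for 50% and 90% of the reads and the effective number were not recomputed at equal depth.

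**Figure D1:**
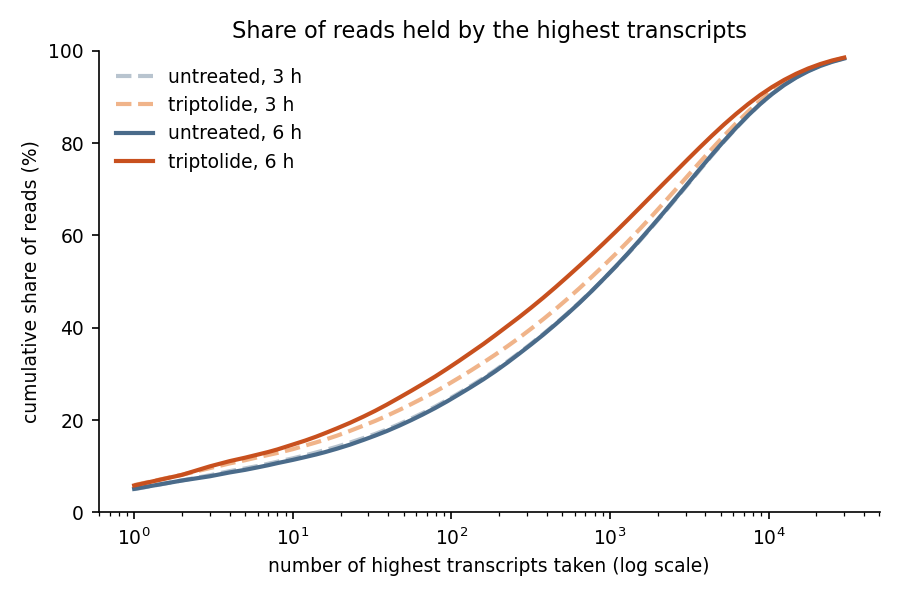
Cumulative share of reads (%, vertical axis) held by the highest transcripts of each library (number taken, log scale), 1 line for each of the 4 RNA libraries. The untreated lines nearly coincide, and from 3 transcripts on the triptolide line at 6 h lies above the others (at 1 and 2 transcripts that of triptolide at 3 h is slightly higher, 5.92% against 5.84% at 1), reaching 59.6% at 1000 transcripts where the untreated 6 h library is at 52.0%.

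In all, 19.2% of the reads stood on other transcripts in the treated than in the untreated 6 h library, measured as the summed absolute difference in share divided by 2. The same measure was 9.53% for triptolide at 3 h and 6.41% between the untreated libraries of 6 h and 3 h. The gain was narrow and the loss was wide. At 6 h, 50% of all gained share went to 138 transcripts, while 50% of all lost share came from 1127 transcripts. Between the untreated libraries these numbers were nearly equal, at 857 and 854, and at 3 h with triptolide they were 195 and 1002. The 10 transcripts with the largest gains took 3.87 percentage points of the library at 6 h, or 20.1% of the whole gain. The 10 with the largest losses gave up 0.803 points, or 4.17% of the whole loss.

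The transcript that gained most was ENSMUST00000082402.1 (1545 nt). It had 11263 CPM untreated and 14421 CPM with triptolide at 3 h, and 9191 CPM untreated and 18417 CPM with triptolide at 6 h. Both treated libraries were above both untreated ones, with the widest gap at 6 h. Its log2 ratio was 1.00 at 6 h (counting interval 1.00 to 1.01), a 2.00-fold higher share, and 0.36 at 3 h. TPM, the deposited unit, divides reads by effective length and then scales each library to a fixed total. A transcript's TPM ratio between libraries thus also depends on the other transcripts. In TPM, ENSMUST00000082402.1 was at 6939 untreated and 11352 with triptolide at 6 h, a log2 ratio of 0.71 and so under 2-fold. ENSMUST00000217116.1 (3756 nt) had the second most reads in both 6 h libraries. It was at 18933 and 22408 CPM at 3 h, and at 18172 and 22962 CPM at 6 h, untreated and treated in that order. Its share was 1.26-fold higher at 6 h (log2 ratio 0.34, interval 0.33 to 0.34), below the 2-fold limit. In TPM the gap nearly closed, at 5459 untreated and 5622 treated (log2 ratio 0.04).

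The transcript that lost most was ENSMUST00000015800.15 (2394 nt). It was at 1634 CPM untreated and 1028 CPM with triptolide at 3 h, and at 2606 CPM untreated and 863 CPM with triptolide at 6 h. Both treated libraries were below both untreated ones, but the untreated libraries also differed from each other, by a log2 ratio of 0.67 from 3 h to 6 h. Its share was 3.02-fold lower with triptolide at 6 h (log2 ratio -1.59, interval -1.62 to -1.57), and it moved from rank 14 to rank 117 in the library. ENSMUST00000071555.12 (1952 nt) was at 2403 and 2322 CPM in the untreated libraries of 3 h and 6 h, and at 1423 and 1245 CPM in the treated ones. The untreated values lay close to each other and the treated values below them at both times. Its log2 ratio was -0.90 at 6 h (interval -0.92 to -0.88) and -0.76 at 3 h, short of the 2-fold limit at both. In TPM the 6 h log2 ratio was -1.19, past that limit. These 4 were taken by size of gain or loss and for having the same direction with library totals, the TMM factors of edgeR, the size factors of DESeq2 (both fit a library to the bulk of its transcripts) and TPM, so their directions are descriptions.

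**Figure D2:**
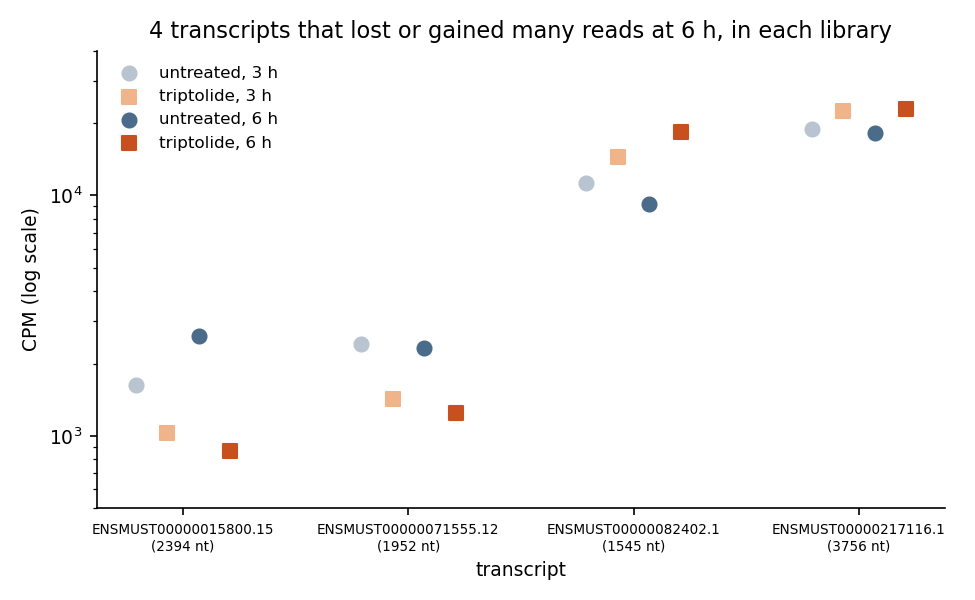
CPM (vertical axis, log scale) of the 4 identified transcripts in each of the 4 RNA libraries, 1 point a library, circles untreated and squares triptolide. For the 2 transcripts on the left both squares lie under both circles, and for the 2 on the right above them. At 6 h the first transcript is at 2606 CPM untreated and 863 CPM with triptolide, and the third at 9191 and 18417 CPM.

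The transcript with the most reads in each of the 4 libraries (1849 nt) was left out of the identified ones because its direction turned with the unit. It held 5.10% of the untreated and 5.84% of the treated reads at 6 h, a log2 ratio of 0.20, but its TPM was lower with the drug (log2 ratio -0.10). Among the 20 transcripts with the largest gains, log2 ratios ran from 0.20 to 1.40, and 7 were 2-fold or more higher. All 20 also had a higher share with triptolide at 3 h, where their median log2 ratio was 0.26 against 0.72 at 6 h, and 18 of 20 were higher in TPM too. A higher share at 3 h was common among abundant transcripts. It was found for 79 of the 100 highest transcripts of the untreated 3 h library. Over all 32206 transcripts with a mean CPM of at least 1, 46.7% were higher and 53.3% lower at 3 h. The 20 with the largest losses were lower by a median of 2.58-fold, and 13 of them by at least 2-fold. Of these, 19 were also lower at 3 h, where the median log2 ratio was -0.64, and all 20 were lower in TPM. Singled out after its values were seen, a 2211-nt transcript had the largest fold among the 100 largest losses. It was at 703 and 884 CPM untreated at 3 h and 6 h, and at 191 and 49.0 CPM with triptolide, 18.0-fold lower at 6 h.

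The 100 largest gains and the 100 largest losses differed in transcript length, a property that the ranking did not use directly. The gaining transcripts had a median length of 836.5 nt, and 63 of 100 were under 1000 nt and 3 were 4000 nt or longer. The losing ones had a median of 2529 nt, with 10 under 1000 nt and 27 of 4000 nt or longer. Between the untreated libraries of 6 h and 3 h the order was the other way, with medians of 1918 nt for gains and 1230.5 nt for losses. The ranking is by reads, and long transcripts yield more reads per molecule, so it favours long ones in both directions. The gaining 100 also had a higher level, with a median of 1012 CPM untreated at 6 h against 502 CPM for the losing 100. Length and level were not separated here.

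The highest transcripts were next taken from the untreated 3 h library, which is no side of the 6 h comparison. Of its 100 highest transcripts, 81 had a higher share with triptolide at 6 h and 19 a lower one, and their median log2 ratio stood at 0.39 (0.26 to 0.46). Of these 100, 9 were 2-fold or more higher and 4 2-fold or more lower. Over all 32206 transcripts with a mean CPM of at least 1 these shares were 10.7% and 24.7%, and the median log2 ratio was -0.23. The 2-fold higher calls were thus near the share over all transcripts, and the lower calls were fewer. In TPM 58 of the 100 were higher, with a median of 0.10, and with TMM factors 84. Together they held 24.4% of the untreated and 31.2% of the treated reads at 6 h. Of its 1000 highest transcripts, 501 were higher and 499 lower with library totals, 624 were higher with TMM and 296 in TPM.

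Across all transcripts with a mean CPM of at least 1 across the 4 libraries (32206, with 98.4% of the untreated and 98.5% of the treated reads at 6 h), 24.7% were 2-fold or more lower with triptolide at 6 h and 10.7% 2-fold or more higher, which is 7969 and 3434 transcripts. At 3 h the shares were 8.00% and 5.28%, and between the untreated libraries 3.86% and 4.29%. Of all transcripts past 2-fold at 6 h, the lower ones were 69.9% with library totals, 58.2% with TMM factors, 57.5% with DESeq2 size factors and 81.9% in TPM, and they were the larger group under all 4. TMM raised every log2 ratio by 0.22 and size factors by 0.23, while in TPM those of transcripts of 1000 nt or longer were lower by a median of 0.28 (shift -0.28). The 7969 lower transcripts together went from 16.0% of the untreated reads to 5.18% of the treated reads, and the 3434 higher ones from 3.34% to 8.53%. Ratios within 1.5-fold were found for 14108 transcripts, or 43.8%. The 5th and 95th percentiles of the log2 ratio were -2.46 and 1.65.

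**Figure D3:**
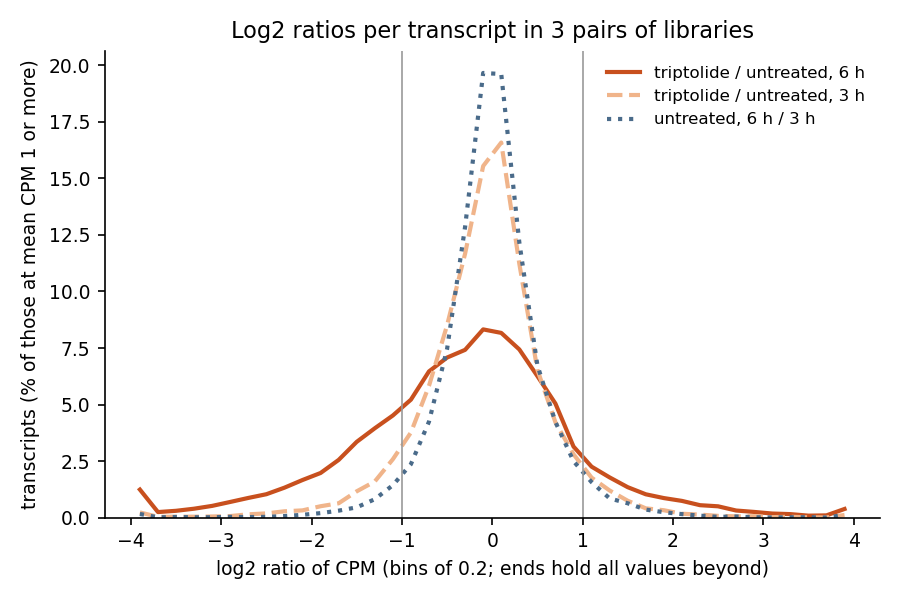
Distribution over the 32206 transcripts of the log2 ratio of CPM (horizontal axis, bins of 0.2) as a percentage of transcripts (vertical axis), 1 line for each of 3 pairs of libraries. Vertical lines mark 2-fold. The line for triptolide at 6 h is the widest, and its left side holds the 24.7% of transcripts 2-fold or more lower.

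The direction turned with abundance. The classes were set by the mean CPM over the 4 libraries, including both 6 h libraries, so a gain can itself lift a transcript into a higher class. Of the 86 transcripts with a mean CPM of at least 1000, 73 had a higher share with triptolide at 6 h, and the class median of the log2 ratio was 0.42 (0.29 to 0.46), and the class went from 23.2% to 30.0% of the reads. At 3 h the same class went from 23.6% to 26.8%. From 100 to 1000 CPM, 172 of 1510 transcripts (11.4%) were 2-fold or more lower and 27 (1.79%) higher, and the class held 36.1% and 35.6% of the reads. From 10 to 100 CPM, 2149 of 9330 (23.0%) were lower and 385 (4.13%) higher, and the class went from 31.6% to 26.2% of the reads. The share of this class fell by 5.31 percentage points, the most of the 4 classes. From 1 to 10 CPM, 5646 of 21280 (26.5%) were lower and 3014 (14.2%) higher. Many higher calls thus stood on scarce transcripts, where untreated 6 h against 3 h also gave 6.17% higher and 5.55% lower. The median log2 ratio of the 4 classes, from scarce to abundant, was -0.23, -0.28, 0.00 and 0.42. With TMM it was -0.01, -0.06, 0.22 and 0.63, and in TPM -0.47, -0.56, -0.29 and 0.13, so the highest class had the highest median under each, and the sign of the class from 100 to 1000 CPM depended on the scaling.

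Reads moved from long to short transcripts. At 6 h, transcripts of 4000 to 8000 nt held 14.8% of the untreated and 11.1% of the treated reads, those of 8000 nt or longer 2.63% and 1.82%, and those of 2000 to 4000 nt 33.6% and 30.0%. Transcripts of 500 to 1000 nt held 15.0% and 18.7%, those of 200 to 500 nt 3.53% and 4.97%, and those under 200 nt 0.755% and 1.12%. Transcripts of 1000 to 2000 nt went the other way in the 2 units, from 29.6% to 32.3% of the reads but from 22.5% to 20.2% of TPM. The counting intervals of these shares were at most 0.0418 points wide. Between the untreated libraries no class differed by more than 0.514 points, and at 3 h with triptolide the differences had the same signs as at 6 h in all 7 classes. The mean transcript length per read was 2722 nt untreated and 2385 nt treated at 6 h, and 2723 and 2627 nt at 3 h. Without the 100 highest transcripts of the untreated 3 h library it was 2997 nt untreated and 2655 nt treated at 6 h, so the drop was not smaller there. Weighted by TPM, the mean was 1181 nt untreated and 977 nt treated at 6 h, and 1166 and 1100 nt at 3 h. Of TPM, 20.9% untreated and 25.1% treated at 6 h lay on 27 transcripts under 200 nt with a mean CPM of at least 10. These held 0.717% and 1.06% of the reads, so the TPM mean rests heavily on few short transcripts.

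**Figure D4:**
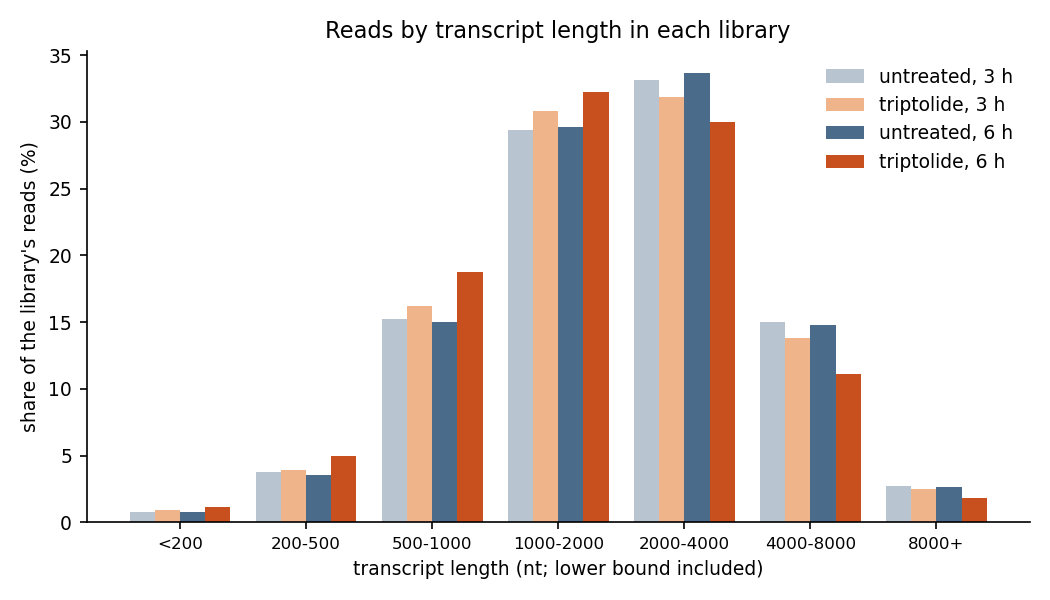
Share of each library's reads (%, vertical axis) by transcript length class (nt, horizontal axis), 1 bar for each of the 4 RNA libraries. The triptolide bar at 6 h is the highest of the 4 in every class under 2000 nt and the lowest in every class from 2000 nt, for example 11.1% against 14.8% untreated at 4000 to 8000 nt.

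At a mean CPM of at least 10 there were 10926 transcripts, of which triptolide at 6 h had 21.3% lower by 2-fold or more and 3.84% higher by 2-fold or more. The background shares were 3.06% lower and 1.29% higher for triptolide at 3 h, and 0.567% lower and 0.622% higher between the untreated libraries. In these more abundant transcripts the lower share was higher in longer classes. It was 7.49% of 307 transcripts from 200 to 500 nt, 9.86% of 1298 from 500 to 1000 nt, 14.5% of 2406 from 1000 to 2000 nt, 24.2% of 4057 from 2000 to 4000 nt, 29.5% of 2397 from 4000 to 8000 nt and 30.9% of 434 at 8000 nt or more. Over all 32206 transcripts it showed no such order, at 21.0%, 24.9%, 22.6%, 25.5%, 26.5% and 25.1% in the same 6 classes, so the order of the lower share depends on the abundance taken. The higher share went the other way, from 10.7% at 200 to 500 nt to 3.62% at 2000 to 4000 nt and 0.922% at 8000 nt or more, and over all 32206 transcripts from 17.5% to 10.4% and 5.51%. Under 200 nt there were 27 transcripts, of which 11 were higher and 1 was lower. With triptolide at 3 h the lower share stayed between 1.15% and 3.60% in the classes from 200 nt, with no such order. Between the untreated libraries it was 2.93% at 200 to 500 nt and under 1% in each longer class. The median log2 ratio at 8000 nt or more was -0.68 with library totals, -0.46 with TMM and -0.90 in TPM, and that at 200 to 500 nt was 0.41, 0.63 and 0.13. At 500 to 1000 nt the sign depended on the scaling, with 0.18, 0.39 and -0.11. It also depended on the abundance taken: over all 32206 transcripts the medians with library totals, TMM and TPM were 0.04, 0.26 and -0.23 at 200 to 500 nt, -0.13, 0.09 and -0.41 at 500 to 1000 nt, and -0.47, -0.25 and -0.61 at 8000 nt or more.

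**Figure D5:**
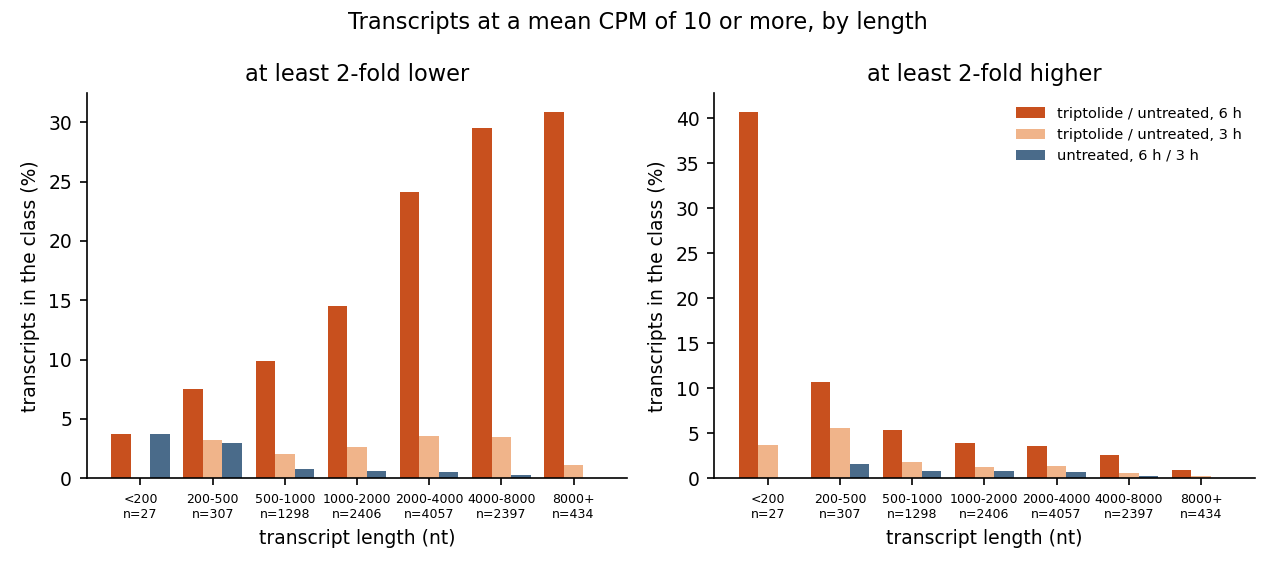
Percentage of transcripts at a mean CPM of at least 10 that were 2-fold or more lower (left) or 2-fold or more higher (right), by transcript length class (number of transcripts under each class), 1 bar for each of 3 pairs of libraries. For triptolide at 6 h the lower share goes from 7.49% at 200 to 500 nt to 30.9% at 8000 nt or more, and the higher share from 10.7% to 0.922%. Over all 32206 transcripts, which are not drawn, the lower share goes from 21.0% to 25.1% with no steady order.

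The gap between length and effective length, which follows the size of the sequenced fragments, was 87.7 nt in the treated and 83.8 nt in the untreated library at 6 h, and 84.9 and 82.8 nt at 3 h (median over transcripts of 2000 to 9000 nt). It was larger in the treated library at both times, and its part in the length order was not tested.

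The transcripts past 2-fold at 6 h mostly had the same sign at 3 h, where neither library is shared. Of the 7969 lower ones, 6562 (82.3%) also had a lower share with triptolide at 3 h, 1656 (20.8%) were already 2-fold or more lower and 174 (2.18%) 2-fold or more higher. Over all 32206 transcripts, 53.3% had a lower share at 3 h and 8.00% were 2-fold or more lower. The median log2 ratio of the 7969 was -1.64 at 6 h and -0.49 at 3 h. Of the 3434 higher ones, 2660 (77.5%) were also higher at 3 h, 802 (23.4%) by at least 2-fold, and 151 (4.40%) were 2-fold or more lower. Their median log2 ratios were 1.59 at 6 h and 0.52 at 3 h. Over all 32206, 46.7% were higher at 3 h and 5.28% by 2-fold or more. At a mean CPM of at least 10 the same sign was found for 92.9% of 2323 lower and 88.6% of 420 higher transcripts, where 53.9% and 46.1% of all 10926 had that sign at 3 h. The members were chosen at 6 h for their size, so their smaller size at 3 h is a description and the difference between the times was not tested.

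Transcripts of a gene often share sequence, and the estimator then splits reads among them. Estimates that were whole numbers (within 1e-06) under 10000 in all 4 libraries, as happens where no read is shared, were found for 311 of the 32206 transcripts. Of these, 71 (22.8%, interval 18.3% to 27.9%) were 2-fold or more lower with triptolide at 6 h and 26 (8.36%, interval 5.53% to 12.0%) 2-fold or more higher. The shares over all transcripts, 24.7% and 10.7%, lie within these intervals, which are wide with 311 transcripts. The effect of read splitting on the calls was not tested. In the 117 with a mean CPM of at least 10, 25 (21.4%) were lower and 6 (5.13%) higher at 6 h. These lie near the 21.3% and 3.84% over all 10926 transcripts at that level. At 3 h there were 2 (1.71%) lower and 0 higher, against 3.06% and 1.29% over all. Between the untreated libraries there were 1 (0.855%) and 0, against 0.567% and 0.622%.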

How the data were processed

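RNA of 4 libraries was analysed, and the 23 chromatin libraries were not used here. Per the file headers, the authors' deposited tables hold 1 row a transcript in the layout of the Salmon quantifier, with lengths, estimated counts and TPM. Not given in the sources used here: its version and transcript set. The submitters' processing notes list SAMtools 1.0.6, Bowtie 1.0.0 and FastQC 0.11.4 and state no role for RNA. The authors' estimated counts carry no normalization and were used unrounded, except in intervals. The deposited TPM values are per effective length.

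CPM was the count over the library total. Transcripts with a mean CPM of at least 1 were kept, a count of 0 was set to 3 reads, and a difference meant at least 2-fold. Intervals of ratios are exact conditional binomial, of shares Clopper-Pearson and of medians binomial order-statistic intervals. TMM factors came from edgeR 4.0.16 and size factors from DESeq2 1.42.0, as scalings only; no test was run. The ratio procedure was tested on simulated independent Poisson counts. These had no read splitting among transcripts and no spread between replicate libraries, so the simulation cannot speak to those limits. Identified transcripts are the 2 largest gains and 2 largest losses in CPM with the same direction under 4 scalings. The members, classes and rules were chosen with earlier results of these data known. The planned sums per gene, gene lists and marker check needed gene names and were not run.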

Additional observations from a re-analysis of the deposited data

How the results depend on the processing

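Lower transcripts outnumbered higher ones with triptolide at 6 h under every setting run. The median log2 ratio, -0.23 with library totals, was -0.0076 with TMM, turned to 0.0035 with DESeq2 size factors, and was -0.48 in TPM, so its sign is set by the scaling. In TPM, where log2 ratios of transcripts of 1000 nt or longer shifted by a median of -0.28, 2157 transcripts were higher. Which features of the libraries set that shift was not tested. Settings that change which transcripts are taken moved the counts by construction. Without the CPM filter (at least 10 reads in both 6 h libraries together) 14668 were lower and 8161 higher, with a median of -0.20. At a mean CPM of 5 or more these were 3618, 861 and -0.24, and at 10 or more 2323 and 420. Among whole-number transcripts they were 71, 26 and -0.14. A limit of 1.5-fold gave 6201 higher, a limit of 4-fold gave 2696 lower and 1079 higher, and intervals wholly beyond 2-fold gave 4711 and 1795. With the untreated 3 h library as the reference, 7885 were lower and 3353 higher; thinned to equal totals, 8035 and 3518. In TPM the 10 highest transcripts took 28.7% of the treated and 25.4% of the untreated 6 h library, and 15.9% of TPM changed transcript. The 3 h reference, the minimum of 10 CPM and the whole-number set were chosen after seeing the data. The planned settings for genes were not run. No paired analysis was possible because the groups compared share only 1 replicate number.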

Other observations

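Some kept transcripts had no read in 1 of the 6 h libraries. The filter used the mean CPM over all 4 libraries, so such a transcript can be kept through its level in the other 6 h library. The numbers and read levels below depend on that filter. There were 100 at 0 with triptolide, with a median of 60.5 reads and at most 311 in the untreated library, and 34 at 0 untreated, with up to 4686 reads in the treated one. Of the 100, 16 had at least 100 reads untreated, and at 3 h none of the 16 was at 0 with triptolide and 2 were at 0 untreated. Of the 34, 8 had at least 100 reads with triptolide, and at 3 h 2 of these 8 were at 0 untreated and 3 with triptolide. None in either set had whole-number estimates in all 4 libraries, and only 311 of all 32206 kept transcripts did. None in sets of this size is near that share, so it is not particular to them. Each of them may share reads with other transcripts.

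Transcripts at 1000 CPM or more numbered 98 with triptolide and 82 without at 6 h, and 84 and 81 at 3 h. Those at 100 CPM or more numbered 1509 and 1708 at 6 h, and 1583 and 1708 at 3 h. At the upper end the count was higher in the treated 6 h library and below it lower.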
